A study of Mus musculus with 2 samples.

Results

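The cells described here are Chil3 and Vcan monocytes, 288 of the 7732 leukocytes kept from Colon26 tumours of 14 mice. They were chosen by their reads, in CP10k, the reads of a gene per 10000 reads of the cell. A cell was taken when Lyz2 was at least 20 CP10k and Chil3 or Vcan was at least 2 CP10k, with C1qa under 1, Cd209a under 2, S100a8 plus S100a9 under 20, Trac under 1 and Gzma under 10 CP10k. Because the cells were selected on these genes, their levels of them are a description and not a finding, and every comparison of the gated cells with other cells is given without a test.

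Colon26 is a colon carcinoma line, and 200000 of its cells were placed under the skin of wild-type BALB/c mice. Single-cell RNA was measured with the BD Rhapsody whole-transcriptome system in CD45+ cells (CD45 marks leukocytes) taken from the tumours on day 10, and a hashtag antibody marked the mouse each cell came from. The minP1 group (4 mice) received 0.08 µg of minP1, an immunostimulatory peptide of HMGN1, into the peritoneum on day 9. The PDL1 group (3 mice) received 200 µg of anti-PD-L1 antibody, clone 10F.9G2, by the same route on days 4 and 8. The minP1_PDL1 group (4 mice) received both agents on those days, and the Control group (3 mice) was untreated. The injections were systemic and the tumours were subcutaneous, although the labels also call the cells intestinal. The animals' age and sex are not given in the sources used here.

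Classical monocytes leave the bone marrow through the chemokine receptor CCR2, carry Ly6C on their surface and enter inflamed tissue and tumours, where they can become macrophages or cells that resemble dendritic cells. Chil3 encodes Ym1, a chitinase-like secreted protein, and Vcan encodes versican, a large chondroitin sulphate proteoglycan of the extracellular matrix. Lyz2 encodes lysozyme, and Thbs1 encodes thrombospondin, a secreted matrix glycoprotein. HMGN1 binds nucleosomes inside the cell and, once released, is an alarmin sensed through TLR4. PD-L1, encoded by Cd274, binds PD-1, which restrains T cells.

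In the mouse genome (GRCm38) Chil3 lies at chr3:106147554-106167564 and Vcan at chr13:89655312-89742509, both on the minus strand. Lyz2 lies at chr10:117277331-117282321 on the minus strand and Thbs1 at chr2:118111876-118127133 on the plus strand. The promoters of the 2 genes that define the gate are shown as the 250 bases before the start of transcription, read 5′ to 3′ on the strand of the gene, from RefSeq on GRCm38.p6. The Chil3 window is chr3:106167565-106167814 and the Vcan window is chr13:89742513-89742762. Capitals mark AGGAAG or its reverse complement, a sequence of the kind bound by PU.1, the myeloid transcription factor encoded by Spi1.
Chil3 promoter: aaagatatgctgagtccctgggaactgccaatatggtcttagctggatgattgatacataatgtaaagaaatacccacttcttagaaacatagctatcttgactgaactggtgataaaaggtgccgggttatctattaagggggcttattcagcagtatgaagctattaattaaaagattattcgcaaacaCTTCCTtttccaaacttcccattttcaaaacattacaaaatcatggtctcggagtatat
Vcan promoter: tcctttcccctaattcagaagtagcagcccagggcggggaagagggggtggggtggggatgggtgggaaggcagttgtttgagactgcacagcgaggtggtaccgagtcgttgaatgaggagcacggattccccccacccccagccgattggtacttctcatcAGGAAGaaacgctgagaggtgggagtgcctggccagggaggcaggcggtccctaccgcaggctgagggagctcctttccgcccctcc
The match lies 59 to 54 bases before the start in Chil3, on the reverse strand, and 87 to 82 bases before the start in Vcan, on the forward strand. This motif was chosen after the sequences had been seen. It was searched on both strands and occurs in 29.5% of 32851 mouse promoter windows of the same length. TTGCNNAA, a core of C/EBP sites, occurs in 9.56% of these windows and TATAAA, the TATA box, in 12.4%. Neither of these was found in the 2 windows shown.

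Lyz2 and Chil3 have close copies beside them in the genome, so their first 90 coding bases are shown with those of the copy. Capitals mark the bases at which the members of a pair differ, 7 between Lyz2 and Lyz1 and 2 between Chil3 and Chil4.
Lyz2: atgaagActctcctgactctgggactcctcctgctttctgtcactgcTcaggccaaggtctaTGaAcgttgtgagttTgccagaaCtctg
Lyz1: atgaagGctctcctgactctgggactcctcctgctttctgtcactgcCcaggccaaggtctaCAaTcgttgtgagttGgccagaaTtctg
Chil3: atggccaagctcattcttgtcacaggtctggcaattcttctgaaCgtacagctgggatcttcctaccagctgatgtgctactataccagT
Chil4: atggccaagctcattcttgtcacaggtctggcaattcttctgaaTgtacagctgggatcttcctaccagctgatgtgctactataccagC
The coding sequences of Lyz2 and Lyz1 are 95% identical, with 22 of 444 bases different, and those of Ly6c2 and Ly6c1 are 97.7% identical, with 9 of 393 bases different. Of all runs of 50 bases in the transcript, 15.4% of those in Lyz2 are also present in Lyz1, 32.6% of those in Ly6c2 in Ly6c1 and 18.5% of those in Chil3 in Chil4. In the gated cells, reads given to Lyz1 were 0.497 of those given to Lyz2, with a range over mice of 0.446 to 0.539, and in the other kept cells they were 0.527 of them. Reads given to Ly6c1 were 0.748 of those given to Ly6c2 in the gated cells and 0.791 in the other kept cells. The assignment of reads within these 2 pairs is therefore uncertain. Chil4 had 0.00188 of the reads of Chil3.

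A gated cell held a median of 49339 reads and 2360 genes, against 39132 reads and 2078 genes over all kept cells. The gated cells of a mouse numbered 12, 23, 34 and 31 in minP1 mice, 14, 11 and 23 in PDL1 mice, 19, 18, 15 and 20 in minP1_PDL1 mice, and 12, 30 and 26 in Control mice. No cell barcode was shared between mice. The value nearest to the limit for Chil3 or Vcan was 2.14 CP10k inside it and 1.95 CP10k outside it. Of the gated cells 32 lay within a factor of 1.5 of that limit, and 15 cells that failed this limit alone lay within the same factor below it. The study's text speaks of separate experimental runs but does not say which mouse was in which, so a run and a treatment cannot be told apart.

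The gated cells carried the expression profile of classical monocytes beyond the genes that chose them. All levels below are CPM, reads of a gene per 1000000 reads summed over the cells of a population in a mouse. Ly6c2, which encodes the monocyte surface antigen Ly6C, averaged 3038 ± 727 CPM (SD, n = 14 mice) in the gated cells, against 620 CPM in all other kept cells and 212 CPM in C1q macrophages, the 163 cells with Lyz2 and C1qa. It was higher in the gated cells than in C1q macrophages in 14 of 14 mice. C1q macrophages numbered between 1 and 28 cells per mouse, and their means weigh each mouse equally. Plac8, a small cysteine-rich protein of myeloid cells, averaged 5333 ± 896 CPM in the gated cells, against 1272 CPM in other kept cells and 365 CPM in C1q macrophages. Ccr2 averaged 1447 ± 244 CPM in the gated cells, against 543 CPM in other kept cells and 701 CPM in C1q macrophages. All 15 markers of classical monocytes were higher in the gated cells than in other kept cells, and 12 of 15 were higher than in C1q macrophages. Among 7488 genes with at least 10 CPM in the gated cells, 47.1% were higher than in other kept cells and 56.5% were higher than in C1q macrophages. The list counts set beside these shares have no such minimum.

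The markers below the C1q macrophage level were Fn1, Itgam and Csf1r. Fn1, which encodes fibronectin, averaged 1242 ± 521 CPM in the gated cells, against 1782 CPM in C1q macrophages. Itgam, the CD11b integrin chain, averaged 1052 ± 181 CPM in the gated cells, against 1336 CPM in those macrophages. Csf1r, the receptor of the macrophage growth factor CSF1, averaged 381 ± 89.1 CPM in the gated cells, against 615 CPM. Their means exceeded those in other kept cells.

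**Figure D1:**
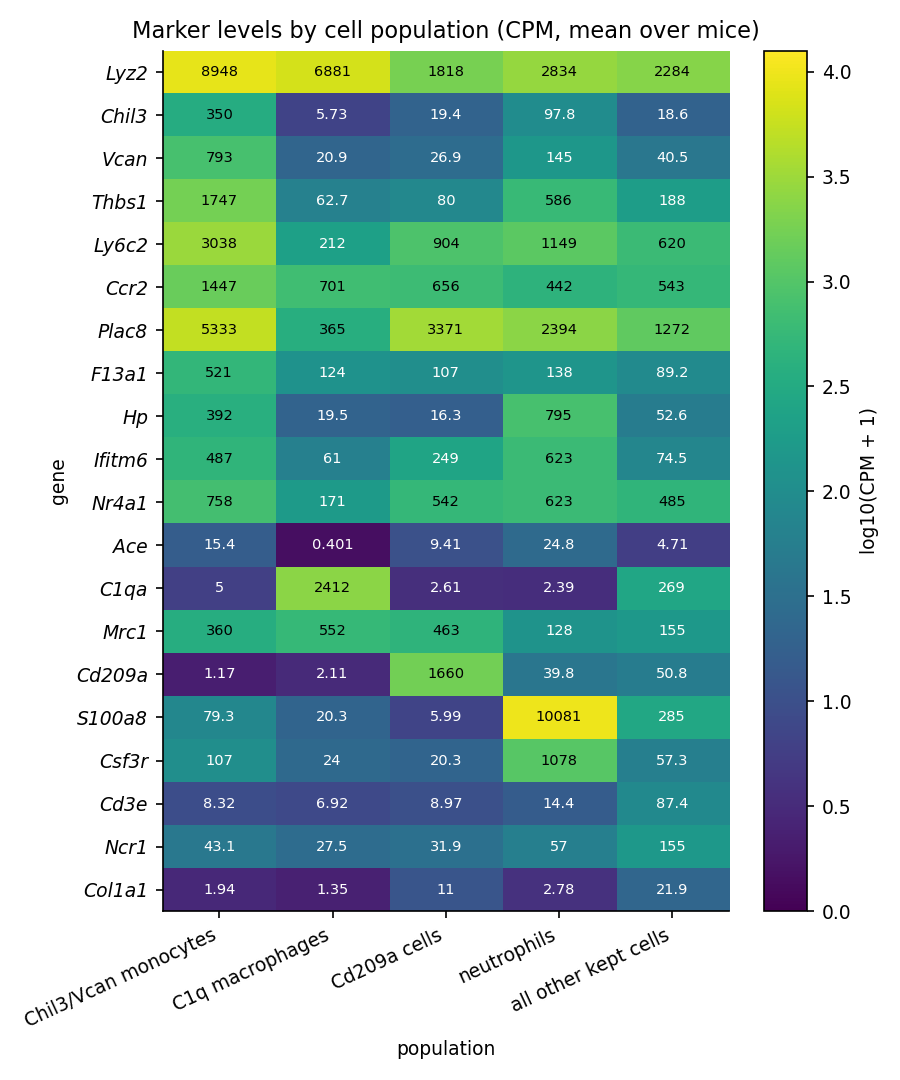
Mean CPM over mice of marker genes (rows) in the gated monocytes and 4 other populations (columns), coloured by log10(CPM + 1). Ly6c2, Ccr2 and Plac8 are highest in the gated cells, while Hp and Ifitm6 are higher in the neutrophils.

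The genes the gate used stood as follows. Chil3 averaged 350 ± 199 CPM in the gated cells, against 18.6 CPM in other kept cells and 97.8 CPM in neutrophils, the 366 cells with S100a8 and S100a9. Vcan averaged 793 ± 242 CPM in the gated cells, against 40.5 CPM in other kept cells and 145 CPM in neutrophils. Lyz2 averaged 8948 ± 1384 CPM in the gated cells, against 6881 CPM in C1q macrophages. These levels follow from the rule.

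Thbs1 was not used by the rule, but it was listed as a marker of these cells with earlier results of these data known. It was among the genes with the highest ratio to both other populations, which is a description only. It averaged 1747 ± 415 CPM in the gated cells, against 188 CPM in other kept cells, 62.7 CPM in C1q macrophages and 586 CPM in neutrophils. Reads of it were found in 227 of 288 gated cells, with a median of 8.84 CP10k and a highest value of 156 CP10k. Free RNA can place reads in cells that do not express a gene. In the gated cells the share at 2 CP10k or more was 42.36% for Chil3, 76.39% for Vcan and 71.53% for Thbs1. In 2058 cells with Trac reads and without Lyz2, T cells by their reads, these shares were 0.78%, 1.99% and 4.81%, with a median of 49339 reads per gated cell against 26928 reads per Trac cell.

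Of the 20 genes listed for matrix, coagulation and proteolysis, 14 were higher in the gated cells than in C1q macrophages and 14 were higher than in other kept cells, beside 56.5% and 47.1% of the 7488 genes. Vcan, which the gate used, is in this list, so its part in both counts follows from the rule. Thbs1 is in it too. F13a1, the A chain of coagulation factor XIII, averaged 521 ± 196 CPM in the gated cells, against 89.2 CPM in other kept cells and 124 CPM in C1q macrophages. F10, coagulation factor X, averaged 152 ± 79.8 CPM in the gated cells, against 34.9 CPM in other kept cells. Mmp19, a matrix metalloproteinase, averaged 220 ± 119 CPM in the gated cells, against 28.4 CPM in other kept cells and 20.2 CPM in C1q macrophages. Tgfbi, a matrix protein induced by TGF-beta, averaged 2183 ± 785 CPM in the gated cells, against 580 CPM in other kept cells and 1090 CPM in C1q macrophages.

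Ccl24, the chemokine eotaxin-2, averaged 228 ± 127 CPM in the gated cells, against 25.4 CPM in other kept cells and 27.1 CPM in C1q macrophages. Its reads lay in 82 gated cells, and it was higher than in other kept cells in 14 of 14 mice. Dmkn, which encodes the secreted protein dermokine, averaged 158 ± 102 CPM in the gated cells, against 18.2 CPM in other kept cells, 3.19 CPM in C1q macrophages and 149 CPM in Cd209a cells, the 136 cells chosen by Cd209a. Tnfaip6, a hyaluronan-binding protein induced by inflammation, averaged 71.4 ± 40.6 CPM in the gated cells, against 10.1 CPM in other kept cells and 1.67 CPM in C1q macrophages. Nrg1, the growth factor neuregulin, averaged 96.9 ± 54.7 CPM in the gated cells, against 21.4 CPM in other kept cells. Saa3, an acute-phase protein, averaged 61.1 ± 142 CPM, but its reads lay in 9 gated cells and 76.6% of them in 1 cell.

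Several of the leading genes are also neutrophil granule or surface genes. Hp, which encodes haptoglobin, averaged 392 ± 95.8 CPM in the gated cells, against 795 CPM in neutrophils and 52.6 CPM in other kept cells. Mmp8, neutrophil collagenase, averaged 84.7 ± 28.3 CPM in the gated cells, against 275 CPM in neutrophils. Cd177, a neutrophil surface protein, averaged 50.9 ± 40.1 CPM in the gated cells, against 41.3 CPM in neutrophils and 4.93 CPM in other kept cells. The neutrophil marker Csf3r averaged 107 ± 45.7 CPM in the gated cells, against 1078 CPM in neutrophils, and Cxcr2 averaged 19.8 ± 12.3 CPM, against 1136 CPM. The 10 neutrophil markers together summed to 438 CPM in the gated cells, against 32983 CPM in neutrophils. The gate capped S100a8 and S100a9.

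Marker sums of lymphoid, stromal and epithelial cells were below those of other kept cells. The 10 T cell markers summed to 260 CPM in the gated cells, against 2152 CPM in other kept cells, and the 10 NK cell markers to 580 CPM, against 4367 CPM in other kept cells and 484 CPM in C1q macrophages. The gate capped Trac and Gzma, which belong to these 2 lists. The 8 markers of conventional DC2 summed to 477 CPM in the gated cells, against 360 CPM in other kept cells and 3644 CPM in Cd209a cells. The 12 markers of C1q macrophages summed to 1698 CPM in the gated cells, against 1800 CPM in other kept cells and 9700 CPM in C1q macrophages. Cd209a and C1qa belong to the DC2 and C1q macrophage lists. The gate capped both, and the Cd209a cells and C1q macrophages were chosen by them, so these contrasts follow partly from the rules. Fibroblast and stroma markers summed to 7.45 CPM, against 423 CPM, with Dcn and Pdgfrb at 0. Epithelial or tumour cell markers summed to 31.7 CPM, against 137 CPM, with Krt20 and Cldn4 at 0. Reads of at least 1 CP10k for Cd3e, Cd3d, Ncr1, Klrb1c, Cd79a, Ighm or Col1a1 were present in 54 gated cells, 18.8% of them, and these are called cells of mixed lineage. The authors' hashtag calls cannot show a doublet of 2 cells from the same mouse, no doublet caller was run, and 8 gated cells had more than 3 times the gated median of reads.

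The type I interferon genes lay between the levels of C1q macrophages and neutrophils. All 28 of its members were higher in the gated cells than in C1q macrophages, and 27 were higher than in other kept cells, beside 56.5% and 47.1% of the 7488 genes. The members summed to 4731 CPM in the gated cells, against 1804 CPM in other kept cells, 1471 CPM in C1q macrophages and 6446 CPM in neutrophils. Rsad2, the antiviral enzyme viperin, averaged 490 ± 434 CPM in the gated cells, against 47.7 CPM in C1q macrophages, and its reads lay in 95 gated cells. Isg15, a ubiquitin-like protein induced by interferon, averaged 219 ± 102 CPM in the gated cells, against 74.4 CPM in C1q macrophages and 685 CPM in neutrophils.

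Of the 23 NF-kB and TLR response genes, 15 were higher in the gated cells than in C1q macrophages and 13 were higher than in other kept cells. Of 20 chemokines, 6 and 9 were higher. Over the 7488 genes these shares were 56.5% and 47.1%. Il1b, which encodes the cytokine IL-1 beta, averaged 3591 ± 740 CPM in the gated cells, against 1088 CPM in C1q macrophages and 13830 CPM in neutrophils. Clec4e, the receptor Mincle, averaged 571 ± 132 CPM in the gated cells, against 113 CPM in C1q macrophages and 1321 CPM in neutrophils. Cd14, the co-receptor of TLR4 for lipopolysaccharide, averaged 2172 ± 399 CPM in the gated cells, against 1208 CPM in C1q macrophages and 2713 CPM in neutrophils. Tlr4 itself averaged 125 ± 62.4 CPM, against 54.1 CPM in C1q macrophages and 276 CPM in neutrophils, and its reads lay in 117 gated cells. Cd274 averaged 340 ± 114 CPM in the gated cells, against 210 CPM in C1q macrophages and 920 CPM in neutrophils.

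Of 16 monocyte and macrophage transcription factors, 14 were higher in the gated cells than in C1q macrophages and 11 were higher than in other kept cells. The shares over the 7488 genes were 56.5% and 47.1%. Cebpb reads lay in 282 of 288 gated cells, Klf4 reads in 252, Spi1 reads in 224 and Cebpa reads in 63. Cebpb, a C/EBP factor of inflammatory myeloid cells, averaged 1142 ± 169 CPM in the gated cells, against 356 CPM in C1q macrophages and 1926 CPM in neutrophils. Klf4, a factor needed for inflammatory monocytes in mice, averaged 941 ± 191 CPM in the gated cells, against 391 CPM in C1q macrophages. Spi1 averaged 218 ± 53.8 CPM in the gated cells, against 82.5 CPM in other kept cells and 183 CPM in C1q macrophages.

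Arg1, Apoe, Mrc1 and the cell cycle genes had lower means in the gated cells than in C1q macrophages. Arg1, the arginine-degrading enzyme arginase, averaged 745 ± 883 CPM in the gated cells, against 2455 CPM in C1q macrophages. Apoe, the lipid carrier, averaged 626 ± 294 CPM in the gated cells, against 1316 CPM. Mrc1, the mannose receptor, averaged 360 ± 227 CPM in the gated cells, against 552 CPM in C1q macrophages. None of the 32 cell cycle genes was higher in the gated cells than in either population, and their sum was 937 CPM, against 3353 CPM in other kept cells and 3055 CPM in C1q macrophages. The 10 nonclassical monocyte markers summed to 1364 CPM in the gated cells, against 1007 CPM in other kept cells and 1006 CPM in C1q macrophages. Of these 10 markers, 5 and 6 were higher in the gated cells, beside 47.1% and 56.5% of the 7488 genes. Nr4a1, a nuclear receptor of nonclassical monocytes and an immediate early gene, made up 758 CPM of their sum, against 485 CPM in other kept cells. Spn and Cx3cr1, of the same list, averaged 15.3 ± 12.6 and 31.0 ± 35.6 CPM in the gated cells, against 61.6 and 51.2 CPM in other kept cells.

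Because the gate takes cells with either gene and leaves out cells with neither, the split between them is partly set by the rule. Of the 288 cells, 166 (57.6%) passed by Vcan alone, 68 (23.6%) by Chil3 alone and 54 (18.8%) by both. Chil3 reads lay in 142 of 288 cells, with a highest value of 60.9 CP10k. Vcan reads lay in 232 cells, with a median of 5.27 and a highest value of 45.9 CP10k. Absence of reads for a gene at this depth does not show that a cell lacked its RNA.

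**Figure D2:**
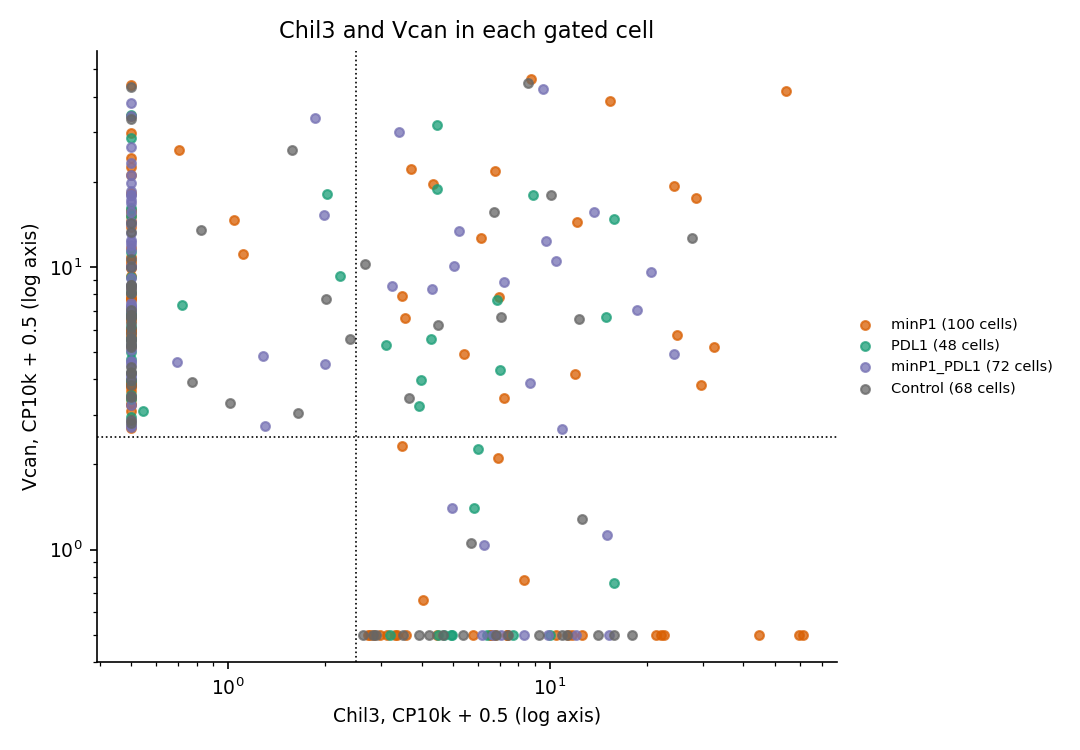
Chil3 (x axis) against Vcan (y axis) in each of the 288 gated cells, in CP10k + 0.5 on log axes, coloured by group; dotted lines mark the limit of 2 CP10k, and points on the left and lower edges have no reads. The 166 cells that passed by Vcan alone lie at upper left, the 68 that passed by Chil3 alone at lower right, and the 54 that passed by both at upper right.

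Ly6c2 and Ccr2 had close levels in both subsets. Ly6c2 averaged 2792 CPM in Vcan-alone cells and 2979 CPM in Chil3-alone cells, and it was higher in Vcan-alone cells in 7 of 14 mice. Ccr2 averaged 1427 CPM in Vcan-alone cells and 1486 CPM in Chil3-alone cells. Thbs1 averaged 1458 CPM in Vcan-alone cells and 2070 CPM in Chil3-alone cells, higher in Chil3-alone cells in 9 of 14 mice. No test was made, since the subsets were cut by reads of the same cells. A mouse had between 2 and 14 Chil3-alone cells and between 3 and 19 Vcan-alone cells. Each tally over mice, here and below, therefore rests on few cells in many mice.

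Ccl24 and Il18bp leaned to the Vcan side. Ccl24 averaged 271 CPM in Vcan-alone cells and 54.9 CPM in Chil3-alone cells and was higher in Vcan-alone cells in 12 of 14 mice. Il18bp, the secreted inhibitor of IL-18, averaged 120 CPM in Vcan-alone cells and 23 CPM in Chil3-alone cells, also higher in 12 of 14 mice. Areg, the EGF receptor ligand amphiregulin, averaged 83.7 CPM in Vcan-alone cells and 2.88 CPM in Chil3-alone cells, but its reads lay in 10 and 2 cells of these subsets. Gzmc, a granzyme of lymphocytes, averaged 78.8 CPM in Vcan-alone cells and 15.4 CPM in Chil3-alone cells.

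Other genes leaned to the Chil3 side. Lyz2, which the gate used, averaged 7873 CPM in Vcan-alone cells and 11580 CPM in Chil3-alone cells and was higher in Chil3-alone cells in 13 of 14 mice. Ifitm6, an interferon-induced transmembrane protein of myeloid cells, averaged 340 CPM in Vcan-alone cells and 678 CPM in Chil3-alone cells, higher in Chil3-alone cells in 12 of 14 mice. Sorl1, a sorting receptor, averaged 61.0 CPM in Vcan-alone cells and 189 CPM in Chil3-alone cells and was higher in Chil3-alone cells in 10 of 14 mice. Timp1, an inhibitor of metalloproteinases, averaged 71.2 CPM in Vcan-alone cells and 291 CPM in Chil3-alone cells, but its reads lay in 19 and 6 cells of these subsets.

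The next question was whether treatment altered how many of these cells were recovered. Gated cells made up 2.13, 3.85, 4.70 and 4.83% of the kept cells in minP1 mice, 2.90, 2.36 and 4.56% in PDL1 mice, 3.41, 3.42, 3.08 and 3.64% in minP1_PDL1 mice, and 2.48, 4.64 and 5.19% in Control mice. The ranges of all 4 groups overlapped. The means were 3.88 ± 1.24% (SD, n = 4) in minP1 mice, 3.27 ± 1.15% (n = 3) in PDL1 mice, 3.39 ± 0.232% (n = 4) in minP1_PDL1 mice and 4.1 ± 1.43% (n = 3) in Control mice. Over the 4 groups the F statistic was 0.438, and a permutation test with 100000 permutations of the mice gave p = 0.718. The share is of CD45+ cells after Percoll separation, not a number of cells per tumour.

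No pair of groups differed beyond the spread between mice. In two-sided exact permutation tests, the difference of means was -0.226 percentage points between minP1 and Control mice (p = 0.771), -0.828 between PDL1 and Control mice (p = 0.400) and -0.714 between minP1_PDL1 and Control mice (p = 0.314). In the same exact tests it was -0.489 between minP1_PDL1 and minP1 mice (p = 0.457) and 0.113 between minP1_PDL1 and PDL1 mice (p = 0.83). Adjusted over the 5 pairs, the smallest p was 0.762. The smallest p these exact tests can give is 0.1 with 3 mice against 3 and 0.029 otherwise. Adjustment over the 5 pairs raises this floor for a pair that reaches it alone. Without minP1 replicate 1, the minP1_PDL1 to minP1 difference of -1.07 had the floor p in the exact test and an adjusted p of 0.143. The minP1 to Control difference was 0.357 without minP1 replicate 1, 0.0418 without Control replicate 2 and 0.318 without Control replicate 3. Without Control replicate 1 it was -1.04, the PDL1 to Control difference was -1.64 and the minP1_PDL1 to Control difference was -1.53.

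The share of gated cells that passed by Vcan is described without a test, since the gate used this value. Vcan was at least 2 CP10k in 75, 69.6, 58.8 and 83.9% of the gated cells in minP1 mice, 85.7, 54.5 and 82.6% in PDL1 mice, 89.5, 83.3, 86.7 and 85.0% in minP1_PDL1 mice, and 58.3, 70.0 and 84.6% in Control mice. The minP1_PDL1 mice lay closest together, with a mean of 86.1 ± 2.62% (SD, n = 4), against 71.0 ± 13.2% in Control mice (n = 3).

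**Figure D3:**
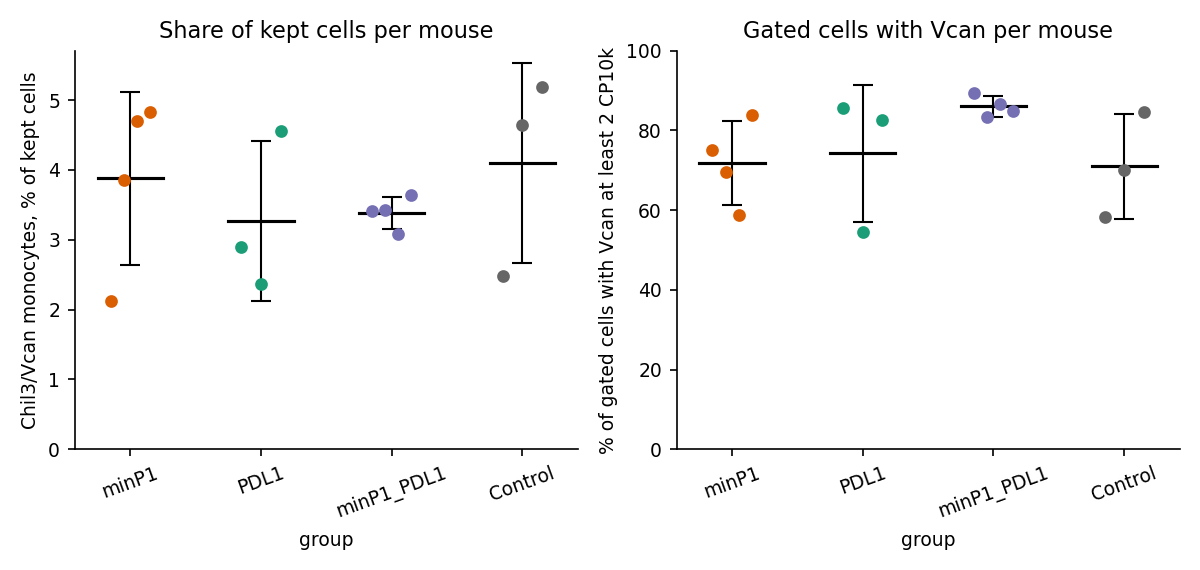
Left, Chil3 and Vcan monocytes as a percent of the kept cells of each mouse; right, percent of the gated cells with Vcan at least 2 CP10k; points are mice, horizontal lines means and error bars SD. Shares run from 2.13 to 5.19% with all groups overlapping, and the 4 minP1_PDL1 mice lie between 83.3 and 89.5% on the right.

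For expression, the reads of the gated cells were summed per mouse, so that the mouse is the replicate, and 9242 genes were tested in 1 fit. No gene passed an adjusted p of 0.05 in any of the 5 comparisons of groups or in the interaction of minP1 with the antibody (edgeR quasi-likelihood test with Benjamini-Hochberg adjustment), which is 0% of the genes in each. Unadjusted p was under 0.05 for 341 genes between minP1 and Control mice, 404 between PDL1 and Control mice and 413 between minP1_PDL1 and Control mice. It was under 0.05 for 392 genes between minP1_PDL1 and minP1 mice, 470 between minP1_PDL1 and PDL1 mice and 401 in the interaction. By chance 462 of the 9242 genes would be expected under 0.05 in each of these. DESeq2 on the same sums called 5, 3, 10, 9, 13 and 1 genes in that order. Among genes named below without its adjusted p, it called S100a9, Ncr1, Rest, Nifk, Esco1, Naa40, Fosl1, Gypc, 4921524J17Rik and Ppp1r13b in 1 comparison or more. Since the edgeR test called no gene, all values below are given with no call, for the 5 genes of smallest p in a comparison and for the members of gene lists with the most reads. Overlap between groups is stated as a description. Many of these genes were picked by small p or after their values were seen, so a lack of overlap supports no call. The share of all 9242 genes without overlap is not given here. In data simulated at this depth with 8585 genes tested between minP1_PDL1 and Control mice, the same test recovered 15.2% of genes with a log2 fold change of 2 and 38.3% of those with a log2 fold change of 3.

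Of the 15 classical monocyte markers, 12 were above zero between minP1 and Control mice, 9 between PDL1 and Control mice and 7 between minP1_PDL1 and Control mice, with medians of 0.10, 0.05 and -0.04. Unadjusted p was under 0.05 for 0, 3 and 2 of them. Ly6c2 was 3165, 1807, 2911 and 3417 CPM in minP1 mice, 3892, 3241 and 3445 CPM in PDL1 mice, 2873, 4437, 2345 and 3410 CPM in minP1_PDL1 mice, and 2190, 2114 and 3284 CPM in Control mice. The groups overlapped, with log2 fold changes against Control mice of 0.17 ± 0.22 (SE), 0.44 ± 0.24 and 0.34 ± 0.22 for minP1, PDL1 and minP1_PDL1 mice. Thbs1 was 1985, 2252, 1643 and 1675 CPM in minP1 mice, 1010, 1891 and 1594 CPM in PDL1 mice, 1852, 1564, 2464 and 1095 CPM in minP1_PDL1 mice, and 1677, 2264 and 1486 CPM in Control mice. Its log2 fold changes against Control mice were 0.07 ± 0.24, -0.31 ± 0.26 and -0.09 ± 0.24 in the same order. These 3 comparisons share the Control mice.

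Chil3 itself varied most within the minP1 group. It was 226, 907, 522 and 231 CPM in minP1 mice, between 206 and 351 CPM in PDL1 mice, between 163 and 551 CPM in minP1_PDL1 mice, and 219, 185 and 348 CPM in Control mice. Vcan was 759, 816, 626 and 999 CPM in minP1 mice, 680, 321 and 914 CPM in PDL1 mice, 1101, 635, 904 and 1185 CPM in minP1_PDL1 mice, and 804, 426 and 939 CPM in Control mice. The gate used both genes, and neither separated the groups.

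Between minP1 and Control mice, the 5 genes of smallest p were cell division, lymphoid or neutrophil genes, all lower in minP1 mice. Stmn1, which encodes the tubulin-binding protein stathmin of dividing cells, was 4.20, 0.800, 1.67 and 1.91 CPM in minP1 mice, against 123, 75.8 and 124 CPM in Control mice. These groups did not overlap, and the log2 fold change was -5.67 ± 1.03 (edgeR adjusted p = 0.257, DESeq2 adjusted p = 3.82e-05). Top2a, a DNA topoisomerase of dividing cells, was 0 CPM in all 4 minP1 mice, against 47.4, 51.6 and 48.9 CPM in Control mice (edgeR adjusted p = 0.329, DESeq2 adjusted p = 0.000184). Ncapd2, a condensin subunit, was 0, 0.800, 0 and 0 CPM in minP1 mice, against 50.5, 5.38 and 27.2 CPM in Control mice. Few cells carry these values: Stmn1 had reads in 42 gated cells, Top2a in 24 and Ncapd2 in 12.

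S100a9, an alarmin of neutrophils whose level the gate capped, was 0, 1.60, 5.56 and 2.54 CPM in minP1 mice, against 7.90, 128 and 176 CPM in Control mice. Ncr1, the NK cell receptor NKp46, was 0, 0.800, 0.556 and 0 CPM in minP1 mice, against 126, 46.2 and 2.47 CPM in Control mice. Both are markers of other cell types. The 10 NK cell markers, Gzma among them, summed to 251 ± 61.0 CPM (SD) in minP1 mice, against 804 ± 418 CPM in Control mice, and the sums did not overlap. The 10 T cell markers summed to between 112 and 172 CPM in minP1 mice, against between 122 and 822 CPM in Control mice. The 10 neutrophil markers summed to 290 ± 95.3 CPM in minP1 mice, against 675 ± 325 CPM in Control mice, and these overlapped. Their part in the difference of the cell cycle genes was not tested.

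The cell cycle list as a whole had 4 of 20 tested genes above zero change between minP1 and Control mice, with a median log2 fold change of -0.79, beside 50.4% of all genes above zero. Without the cells of mixed lineage, a setting that also drops Control replicate 1, 9 of 18 members were above zero and the median was -0.13. The summed level was 692, 809, 884 and 536 CPM in minP1 mice, against 954, 1350 and 1283 CPM in Control mice. These sums did not overlap.

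Il1b, Klf4 and Apoe had higher means in minP1 than in Control mice, without a call. Il1b was 4463, 3042, 3877 and 4665 CPM in minP1 mice, against 2711, 3112 and 2680 CPM in Control mice, a log2 fold change of 0.51 ± 0.16 with an edgeR adjusted p of 1.00. Klf4 was 1097, 1029, 1196 and 1157 CPM in minP1 mice, against 783, 812 and 706 CPM in Control mice, a log2 fold change of 0.55 ± 0.19 with an edgeR adjusted p of 1.00. The Klf4 values of the groups did not overlap, and those of Il1b did. Apoe was 1209, 623, 669 and 705 CPM in minP1 mice, against 418, 480 and 385 CPM in Control mice, with no overlap, a log2 fold change of 0.91 ± 0.39 and an edgeR adjusted p of 1.00.

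The TLR4 and inflammatory lists were mixed. Of the TLR4 complex, adaptor and alarmin genes, 6 of 17 were above zero between minP1 and Control mice, with a median log2 fold change of -0.42. Tlr4 was 22.4, 191, 82.8 and 89.7 CPM in minP1 mice, against 188, 92.5 and 139 CPM in Control mice, and its groups overlapped. Of the NF-kB and TLR response genes 15 of 23 were above zero, with a median of 0.11. Of the type I interferon genes 14 of 28 were above zero, with a median within 0.01 of zero. Of the hypoxia and glycolysis genes 20 of 24 were above zero, with a median of 0.22, and 14 of 24 with a median of 0.03 without the cells of mixed lineage and Control replicate 1.

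Between PDL1 and Control mice, the gene of smallest p was Rps4x, a protein of the small ribosomal subunit. It was 1459, 1375 and 1198 CPM in PDL1 mice, against 2297, 2258 and 2111 CPM in Control mice. The groups did not overlap, and the log2 fold change was -0.76 ± 0.15 (edgeR adjusted p = 0.464, DESeq2 adjusted p = 0.00539). Srgn, which encodes the granule proteoglycan serglycin, was 3599, 4214 and 3748 CPM in PDL1 mice, against 5264, 5580 and 5702 CPM in Control mice, again with no overlap and a log2 fold change of -0.55 ± 0.13 (edgeR adjusted p = 1.00). Both genes had reads in nearly every gated cell, 282 cells for Rps4x and 288 for Srgn.

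The other genes of smallest p in this comparison had fewer reads. Rest, a transcriptional repressor of neuronal genes, was 0 CPM in all 3 PDL1 mice, against 4.74, 51.1 and 32.8 CPM in Control mice, and its reads lay in 32 gated cells. Nifk, a nucleolar protein that binds Ki-67, was 0, 7.89 and 0 CPM in PDL1 mice, against 48.9, 106 and 39.0 CPM in Control mice. Fam111a, a protease of DNA replication and antiviral restriction, was 245, 162 and 109 CPM in PDL1 mice, against 48.9, 26.3 and 30.3 CPM in Control mice. Its groups did not overlap, and the log2 fold change was 2.27 ± 0.60 (edgeR adjusted p = 1.00).

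Itgam, Cd44 and Fn1, genes of adhesion and matrix, had lower values in PDL1 mice. Itgam was 740, 811 and 809 CPM in PDL1 mice, against 981, 1116 and 1113 CPM in Control mice, a log2 fold change of -0.48 ± 0.17 with no overlap. Cd44, the hyaluronan receptor, was 1004, 1428 and 1776 CPM in PDL1 mice, against 2007, 1878 and 2084 CPM in Control mice, a log2 fold change of -0.54 ± 0.18. Fn1 was 704, 481 and 953 CPM in PDL1 mice, against 1966, 1196 and 1311 CPM in Control mice, a log2 fold change of -1.09 ± 0.37. Each of these 3 genes had an edgeR adjusted p of 1.00 and no overlap between the groups. Over the 20 genes for chemoattractant and adhesion receptors, 9 were above zero and the median was -0.09, beside 48.9% of all genes above zero.

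All 10 tested MHC class II genes were above zero between PDL1 and Control mice, with a median log2 fold change of 0.46. These genes encode the molecules that present peptides to CD4+ T cells and the proteins that load them. H2-Ab1, the beta chain of I-A, was 3537, 1809 and 2830 CPM in PDL1 mice, against 1445, 2764 and 1593 CPM in Control mice, a log2 fold change of 0.46 ± 0.33 with overlapping groups. Cd74, the invariant chain, was 4885, 3600 and 4960 CPM in PDL1 mice, against 2627, 3992 and 3332 CPM in Control mice, a log2 fold change of 0.40 ± 0.31. None of the 10 had an unadjusted p under 0.05. The MHC class II sum was 16019, 12974 and 15962 CPM in PDL1 mice, against 9785, 13566 and 10416 CPM in Control mice.

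All 11 tested MHC class I genes were also above zero, with a median of 0.17, but 2 of 11 were above zero, with a median of -0.09, without the cells of mixed lineage, a setting that also drops PDL1 replicate 2 and Control replicate 1. Of the type I interferon genes 17 of 28 were above zero, with a median of 0.13. That median was 0.66, with 21 of 27 above zero, when Chil3 or Vcan had to reach 5 CP10k, a setting that drops PDL1 replicate 2, Control replicate 1 and minP1 replicate 1. The cholesterol biosynthesis list had 7 of 20 genes above zero and a median of -0.92. Its sum was 381, 569 and 511 CPM in PDL1 mice, against 709, 956 and 810 CPM in Control mice.

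**Figure D4:**
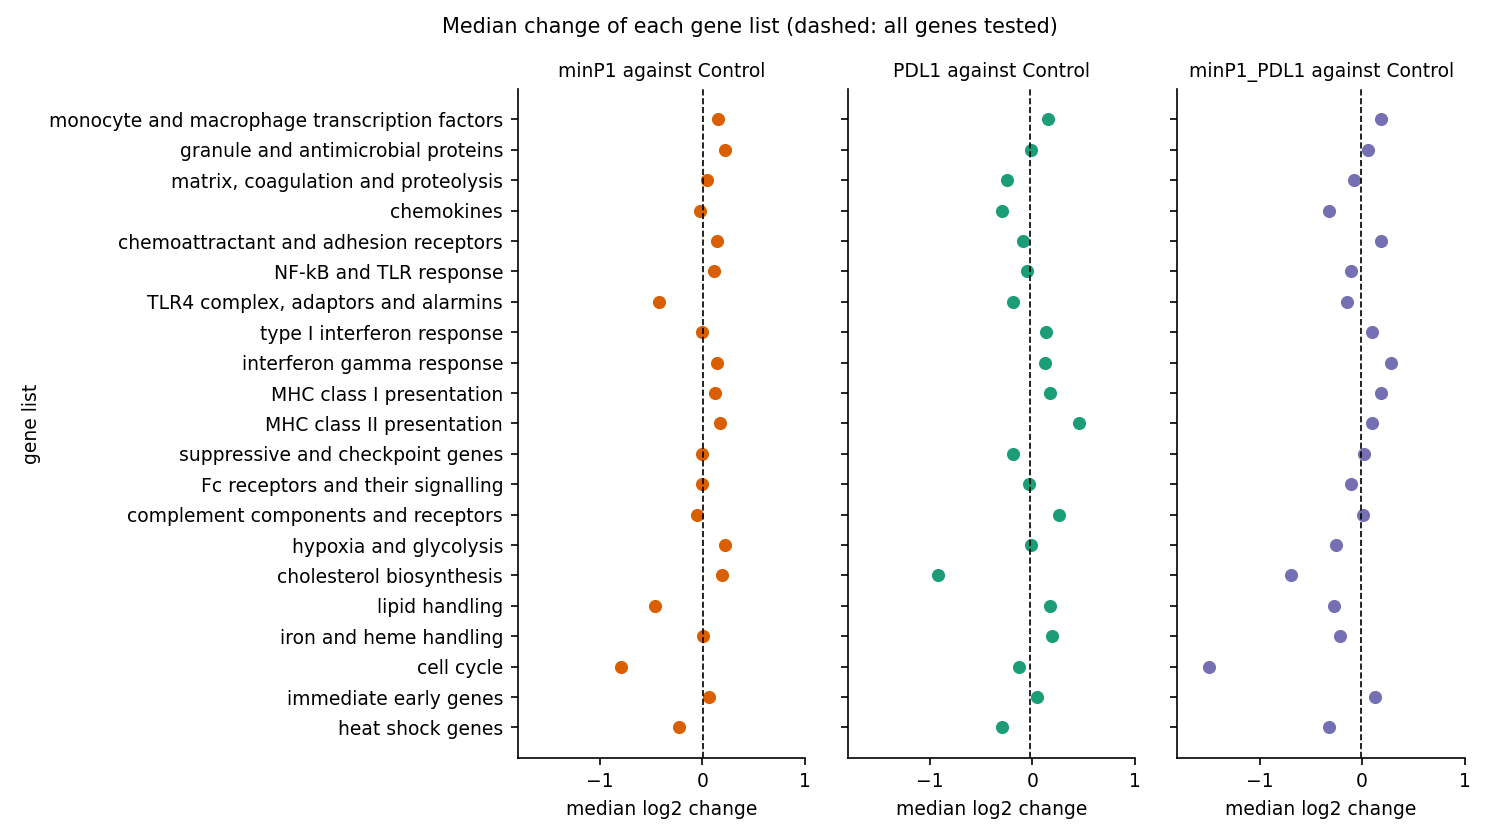
Median log2 fold change of the tested members of each gene list against Control mice (x axis) for minP1, PDL1 and minP1_PDL1 mice; dashed lines are the medians of all 9242 genes. The lowest medians are cell cycle in minP1 (-0.79) and minP1_PDL1 mice (-1.49) and cholesterol biosynthesis in PDL1 mice (-0.92), and the highest is MHC class II presentation in PDL1 mice (0.46).

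Between minP1_PDL1 and Control mice, Pmpca, Esco1, Rps20 and Naa40 were among the genes of smallest p. Pmpca, a subunit of the mitochondrial processing peptidase, was 65.9, 119, 106 and 111 CPM in minP1_PDL1 mice, against 14.2, 8.06 and 15.5 CPM in Control mice. Its log2 fold change was 2.96 ± 0.68 with no overlap (edgeR adjusted p = 0.824, DESeq2 adjusted p = 0.00692). Esco1, an acetyltransferase of cohesin, was 128, 142, 67.9 and 100 CPM in minP1_PDL1 mice, against 1.58, 19.4 and 4.33 CPM in Control mice, a log2 fold change of 3.58 ± 0.87. Rps20, a ribosomal protein, was 1154, 1134, 1218 and 1302 CPM in minP1_PDL1 mice, against 1811, 1890 and 1672 CPM in Control mice, a log2 fold change of -0.61 ± 0.15. Naa40, a histone acetyltransferase, was 0 CPM in all 4 minP1_PDL1 mice, against 23.7, 1.61 and 52.6 CPM in Control mice, with reads in 17 gated cells. The groups did not overlap for any of these genes.

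Scd2, a stearoyl-CoA desaturase that makes monounsaturated fatty acids, set minP1_PDL1 mice apart from each single treatment. It was 53.2, 18.4, 1.51 and 4.22 CPM in minP1_PDL1 mice, against 157, 210, 138 and 162 CPM in minP1 mice, 170, 120 and 206 CPM in PDL1 mice and 91.6, 96.2 and 128 CPM in Control mice. All minP1_PDL1 mice lay below all others, but Scd2 was picked by these same values. The log2 fold change was -3.08 ± 0.65 against minP1 mice (edgeR adjusted p = 0.716, DESeq2 adjusted p = 0.00188). Against PDL1 mice it was -3.02 ± 0.68 (edgeR adjusted p = 0.613, DESeq2 adjusted p = 0.00434). Reads of Scd2 lay in 97 gated cells, with 5.84% of them in the highest cell. With minP1_PDL1 replicate 1 left out, the edgeR adjusted p of Scd2 was 0.0120 against minP1 mice and 0.0176 against PDL1 mice. That replicate had the highest Scd2 of its group. Without the cells of mixed lineage, which leaves 12 mice, the edgeR adjusted p was 0.00312 against minP1 mice, 0.00289 against PDL1 mice and 0.0330 against Control mice. This setting also drops PDL1 replicate 2 and Control replicate 1, each with the lowest Scd2 of its group. For a gene picked by its own values, these settings support no call.

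Tgfbi was highest in minP1_PDL1 mice. It was 4154, 2297, 3576 and 2377 CPM in minP1_PDL1 mice, against 2334, 1816, 2165 and 1662 CPM in minP1 mice, 1593, 1402 and 1708 CPM in PDL1 mice and 2054, 1527 and 1900 CPM in Control mice. The minP1_PDL1 values overlapped those of minP1 mice and lay above those of PDL1 and Control mice. The log2 fold change was 0.99 ± 0.20 against PDL1 mice (edgeR adjusted p = 0.323, DESeq2 adjusted p = 0.00434), 0.60 ± 0.18 against minP1 mice (edgeR adjusted p = 1.00) and 0.74 ± 0.20 against Control mice (edgeR adjusted p = 0.923). Reads of Tgfbi lay in 275 of 288 gated cells.

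Against minP1 mice, other genes of smallest p were carried by few cells. Fosl1, which encodes the AP-1 family member Fra-1, was 11, 16.2, 21.1 and 31.6 CPM in minP1_PDL1 mice, against 0 CPM in all 4 minP1 mice, and its reads lay in 16 gated cells. Gypc, the membrane protein glycophorin C, was 0 CPM in all 4 minP1_PDL1 mice, against 53.2, 4.80, 6.11 and 36.3 CPM in minP1 mice. The unnamed transcript 4921524J17Rik was 37.2, 21.6, 24.2 and 47.4 CPM in minP1_PDL1 mice, against 0, 1.60, 0.556 and 0 CPM in minP1 mice. Against PDL1 mice, Ppp1r13b, a p53-binding protein, was 0 CPM in all 4 minP1_PDL1 mice, against 49.6, 14.5 and 60.2 CPM in PDL1 mice, and Rest was 32.1, 20.5, 40.8 and 40.1 CPM, against 0 CPM in all 3 PDL1 mice.

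Hypoxia and glycolysis genes had mostly negative changes between minP1_PDL1 and minP1 mice. Of the 24 tested, 1 was above zero, with a median log2 fold change of -0.40, beside 49.5% of all genes, and 5 had an unadjusted p under 0.05. Aldoa, a glycolytic aldolase, was 859, 548, 960 and 587 CPM in minP1_PDL1 mice, against 996, 1054, 914 and 1016 CPM in minP1 mice, a log2 fold change of -0.47 ± 0.20 (edgeR adjusted p = 1.00). The sum was 11357, 7482, 8507 and 7834 CPM in minP1_PDL1 mice, against 11523, 11433, 11079 and 9917 CPM in minP1 mice. Replicate 1 of the minP1_PDL1 group lay within the minP1 range and the other 3 lay below it. With RLE in place of TMM scaling, 4 of 24 were above zero and the median was -0.37.

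Cholesterol biosynthesis genes also had mostly negative changes between minP1_PDL1 and minP1 mice, with 2 of 20 above zero and a median of -1.09. Against Control mice 7 of 20 were above zero, with a median of -0.69, but this median was 0.02 over 18 genes when Chil3 or Vcan had to reach 5 CP10k and 0.12 without the cells of mixed lineage, and both settings also drop Control replicate 1. The sum was 732, 470, 704 and 762 CPM in minP1_PDL1 mice, against 1289, 840, 646 and 1333 CPM in minP1 mice. The values overlapped.

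**Figure D5:**
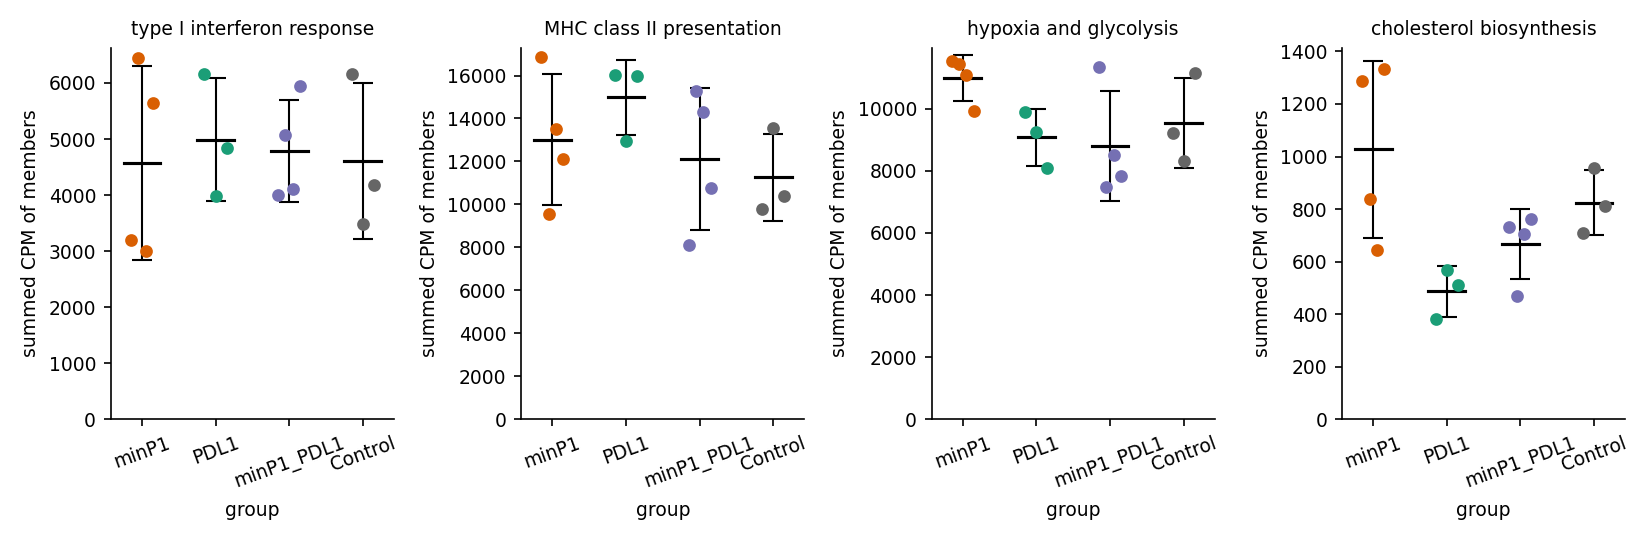
Summed CPM of the members of 4 gene lists in the gated cells of each mouse (points), with the mean (line) and SD (error bar) of each group. Interferon sums overlap in all groups, MHC class II is 12974 to 16019 CPM in PDL1 mice against 9785 to 13566 CPM in Control mice, and cholesterol biosynthesis is 381 to 569 CPM in PDL1 mice against 709 to 956 CPM in Control mice.

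Interferon and chemokine genes were mixed in minP1_PDL1 mice. Of the type I interferon genes 16 of 28 were above zero against Control mice, with a median of 0.10, and of the interferon gamma genes 14 of 23, with a median of 0.28. Ifi44, an antiviral protein induced by interferon, was 431, 879, 796 and 822 CPM in minP1_PDL1 mice, against 542, 329 and 381 CPM in Control mice, a log2 fold change of 0.78 ± 0.27 (edgeR adjusted p = 1.00). Cxcl10 was 83.7, 327, 239 and 465 CPM in minP1_PDL1 mice, against 1198, 600 and 413 CPM in Control mice, a log2 fold change of -1.43 ± 0.67 (edgeR adjusted p = 1.00). Both genes had overlapping groups. Of 18 chemokines 5 were above zero, with a median of -0.32.

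Cell cycle genes had 3 of 20 members above zero between minP1_PDL1 and Control mice, with a median of -1.49, and 4 of 20, with a median of -1.73, between minP1_PDL1 and PDL1 mice. The sums were 698, 601, 574 and 824 CPM in minP1_PDL1 mice, against 669, 2488 and 759 CPM in PDL1 mice and 954, 1350 and 1283 CPM in Control mice. The highest sum, of PDL1 replicate 2, came from 11 gated cells. T cell markers summed to between 78.6 and 363 CPM in minP1_PDL1 mice, against between 122 and 822 CPM in Control mice, and NK cell markers to between 184 and 1344 CPM, against between 331 and 1124 CPM. Their part in the cell cycle difference was not tested.

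The interaction asked whether the minP1 difference depended on the antibody, as the change from PDL1 to minP1_PDL1 mice minus the change from Control to minP1 mice. Rest, Ascc3, Fam111a and Scd2 were among the genes of smallest p, each with an edgeR adjusted p of 1.000. Scd2 had an interaction of -3.69 ± 0.95 on the log2 scale. Fam111a had -3.14 ± 0.78, with 60.8, 20.5, 18.1 and 54.8 CPM in minP1_PDL1 mice beside 245, 162 and 109 CPM in PDL1 mice, and 53.2, 64.0, 60.6 and 101 CPM in minP1 mice beside 48.9, 26.3 and 30.3 CPM in Control mice. Ascc3, a helicase of the activating signal cointegrator complex, had -4.10 ± 0.94, with 11.8, 18.4, 25.7 and 4.22 CPM in minP1_PDL1 mice beside 74.8, 110 and 87.3 CPM in PDL1 mice, and 56.0, 91.2, 51.1 and 57.3 CPM in minP1 mice beside 30.0, 21 and 17.3 CPM in Control mice. For Ascc3 the minP1_PDL1 mice lay below the PDL1 mice without overlap, and the minP1 mice lay above the Control mice without overlap. DESeq2 called Ascc3 in the interaction with an adjusted p of 0.0257.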

How the data were processed

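Leukocytes of 14 mice were measured in 1 table. The authors deposited read counts per gene and cell barcode with hashtag prefixes; per the submitters' processing notes they used cutadapt 2.10, Bowtie2 2.3.4.1, mm10 and Seurat 2.3.4. Per the series' design text, the authors took barcodes from a knee plot and identified hashtag doublets. The counts appear not to be collapsed by molecular identifier (the median nonzero entry was 10 and 18.0% of them were 1), so cells differ in amplification as well as RNA. The table holds 22836 genes and 8262 barcodes, of which 147 columns outside the 14 hashtags were not used. Cells with mitochondrial reads above 25% were dropped, leaving 7732 of 8115; the study's text gives 7613 cells.

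Counts of gated cells were summed per mouse, giving 627797 to 1840223 reads of tested genes. They were tested in edgeR 4.0.16 (TMM, filterByExpr, quasi-likelihood F test, all 14 mice in 1 fit of 4 group means; R 4.3.3), with DESeq2 1.42.0 as an alternative, after a check on simulated data. The standard error is the absolute log2 fold change over the square root of F. Shares were tested by permutation of the mice in Python 3.11.15. Replicates are separate mice.

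The members and gene lists were chosen with earlier results of these data known. Named genes were those past an adjusted p of 0.05 or, where fewer than 3 passed, the 5 of smallest p; the 3 members of a list with most reads; the markers; and the 15 genes of highest ratio (1 CPM added, at least 50 CPM) to other cells or C1q macrophages, with 5 each way between subsets. Other list members named in the population comparison, and the choice of which named genes to describe, were made after their values were seen. Alternatives were another test, scaling, filter, gate and mitochondrial limit, removal of mixed-lineage cells, a replicate block and each mouse left out. Some genes that this rule selects are not reported here.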

Additional observations from a re-analysis of the deposited data

Results flagged for a closer look

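The minP1 and minP1_PDL1 groups, of 4 mice each, were examined in 68 tests, each of 1 quantity in 1 group. Of these, 4 flagged a mouse far from the other 3, and chance flags about 1 in 20 tests, or 3.40 here. The tests share the same mice, and the groups of 3 mice were not examined. The median reads per gated cell was 63697 in minP1 replicate 1, against 47084 to 49305 in the other minP1 mice. The summed level of granule and antimicrobial genes was 20950 CPM in minP1 replicate 3, against 19280 to 19554 CPM in the other minP1 mice, and that of iron and heme genes was 10216 CPM in the same mouse, against 9282 to 9384 CPM. The summed level of complement genes was 3086 CPM in minP1_PDL1 replicate 2, against 3459 to 3534 CPM in the other minP1_PDL1 mice. The cause of these values was not tested.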

How the results depend on the processing

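With no filter on low counts, edgeR called 15 genes between minP1 and Control mice, 3 between PDL1 and Control, 16 between minP1_PDL1 and Control, 17 between minP1_PDL1 and minP1, 11 between minP1_PDL1 and PDL1 and 7 in the interaction. DESeq2 called 5, 3, 10, 9, 13 and 1 in that order. Removal of cells of mixed lineage leaves 12 mice, without PDL1 replicate 2 and Control replicate 1. In that setting edgeR called 1 gene, Scd2, in each comparison of minP1_PDL1 mice with another group. Its log2 fold changes were -3.96 against Control, -4.43 against minP1 and -4.81 against PDL1 mice. RLE scaling, a limit of 5 CP10k for Chil3 or Vcan, a mitochondrial limit of 10% and no limit on Trac and Gzma (added after seeing the data) gave 0 in all 6. The replicate block gave 1 call, Tgfbi between minP1_PDL1 and PDL1 mice (log2 fold change 1.05, adjusted p = 0.0268), and it moved no other count; the numbers are not shown to pair mice, since same-numbered deviations correlated at -0.017 to 0.025 over 19 pairs and 4 of 14 mice correlated best with a mouse of their own number. Leaving out each mouse gave 0 to 1 calls between minP1 and Control mice (Stmn1 without minP1_PDL1 replicate 3, adjusted p = 0.0477), 0 to 1 between minP1_PDL1 and minP1 and 0 to 1 between minP1_PDL1 and PDL1 (Scd2 without minP1_PDL1 replicate 1), and 0 in the other 3. The share difference between minP1 and Control mice was 0.260 with the 5 CP10k limit and 0.137 without mixed-lineage cells, and -1.04 to 0.357 with a mouse left out (0.0418 and 0.318 without Control replicates 2 and 3). That between minP1_PDL1 and minP1 mice was 0.535 as a share of Lyz2 cells and -1.07 to -0.171 with a mouse left out. The left-out ranges were -0.344 to 0.758 between minP1_PDL1 and PDL1 (-0.0746 without PDL1 replicate 1), -1.64 to -0.284 between PDL1 and Control, -1.53 to -0.171 between minP1_PDL1 and Control, 0.233 to 1.57 for F over the groups and 0.920 to 2.74 for F of the Vcan share, which rests on values the gate used and supports nothing. No single gene named by smallest p reversed. The causes were not tested. With 11 to 34 gated cells per mouse, genes read in few cells vary with the cells drawn.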

Other observations

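Replicate 1 of the minP1_PDL1 group stood apart from the other 3 mice in several genes, an observation made after the values were seen. Hmox1, the heme-degrading enzyme, was 2234, 161, 177 and 499 CPM in minP1_PDL1 mice, against 327, 58.6 and 169 CPM in Control mice. Arg1 was 3234, 74.6, 10.6 and 49.5 CPM in minP1_PDL1 mice, against 437, 394 and 379 CPM in Control mice. In both genes replicate 1 was the highest of all 14 mice, while Arg1 in the other 3 minP1_PDL1 mice was lower than in any other mouse. Replicate 1 also had the lowest Lyz2 of the group, with 5595, 9787, 7802 and 9354 CPM in minP1_PDL1 mice, and the highest Tgfbi. The highest cell held 20.0% of the Hmox1 reads and 13.6% of the Arg1 reads over all gated cells.

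Cd274, the target of the antibody, was between 255 and 356 CPM in PDL1 mice and 168, 412, 340 and 516 CPM in minP1_PDL1 mice, against 568, 299 and 430 CPM in Control mice. The groups overlapped. Ccl2, the ligand of CCR2, was 4799, 2224, 1419 and 4472 CPM in minP1_PDL1 mice, against 1048, 1270 and 2763 CPM in Control mice, a log2 fold change of 0.91 ± 0.37 (edgeR adjusted p = 1.00). The groups overlapped here too. Msr1, a scavenger receptor, was 1608, 1079, 1405 and 1081 CPM in minP1_PDL1 mice, against 706, 847 and 1029 CPM in Control mice, with no overlap and a log2 fold change of 0.56 ± 0.20 (edgeR adjusted p = 1.00).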
